A study of Mus musculus with 6 samples.

Results

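Tlr7 encodes Toll-like receptor 7, a receptor of the innate immune system that binds single-stranded RNA inside endosomes. Its level was followed on 6 Agilent arrays of adult mouse neocortex, of which 3 held RNA of Khsrp-/- mice and 3 that of wild type littermates. Of the 1727 genes that could be named on these arrays, by 1803 probes, Tlr7 is 1 gene with 1 probe, which was printed as 1 spot per array. The probe was chosen by its gene symbol. The gene itself was taken up because its difference between genotypes and its spread between knockout arrays were already known, so its own values are given as a description without a test.

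The Khsrp-/- mice carry a constitutive deletion of Khsrp, which encodes KHSRP, an RNA-binding protein that promotes the decay of mRNAs with AU-rich elements. The deletion starts in the first exon and removes the gene in every cell type. RNA of bulk neocortex was used, so the arrays do not separate neurons from the other cells of the tissue. All 6 samples are given as adult male neocortex without any treatment, and each array was hybridized with Cy3-labelled RNA of 1 sample. RNA was depleted of rRNA and primed with both random and oligo(dT) primers, and no cell type was enriched. No probe was named for Khsrp, so the targeted gene could not be used to check the genotype of an array.

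TLR7 is made in the endoplasmic reticulum, is carried to endosomes by UNC93B1 and is cut there by proteases before it can signal. It then recruits the adaptor MYD88, kinases of the IRAK family and the ubiquitin ligase TRAF6. These activate NF-kappaB, which drives genes of inflammatory cytokines, and interferon regulatory factors, which drive type I interferons and through them the interferon-stimulated genes. Outside the brain the receptor is best known from plasmacytoid dendritic cells and B cells, and in the brain it is known from microglia and has also been described in neurons. The Tlr7 gene lies on the X chromosome between Tlr8, a second endosomal receptor for single-stranded RNA, and Prps2, an enzyme of nucleotide synthesis (neighbours from the RefSeq table of GRCm38.p6).

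Before the values of Tlr7, the sex given for each array was compared with genes of the Y chromosome, since Tlr7 is X-linked. Probes were named for 4 of the 8 Y-linked genes looked for, Ddx3y, Kdm5d, Eif2s3y and Uty. On Khsrp-/- arrays 1 and 3, which are given as male, the differences of these genes from the wild type mean were -6.09 to -2.63 and -6.13 to -3.36 on the log2 scale, and only 2 of the 4 probes were well above background. On Khsrp-/- array 2 they lay 0.12 to 0.21 above that mean, and all 4 probes were well above background there and on each wild type array. Uty had a processed signal of 43.1 on Khsrp-/- array 1, 2518 on array 2 and 30.8 on array 3, against 2778, 3268 and 2798 on the wild type arrays. Signals of the Y-linked genes on 2 of the 3 knockout arrays therefore went against the label, and the third array, whose Y-linked signals matched it, is the one on which Tlr7 was highest. The part of this difference in the Tlr7 values was not tested. The Tlr7 difference is given with and without those 2 arrays, and the pathway genes and markers with both arrays included.

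**Figure D1:**
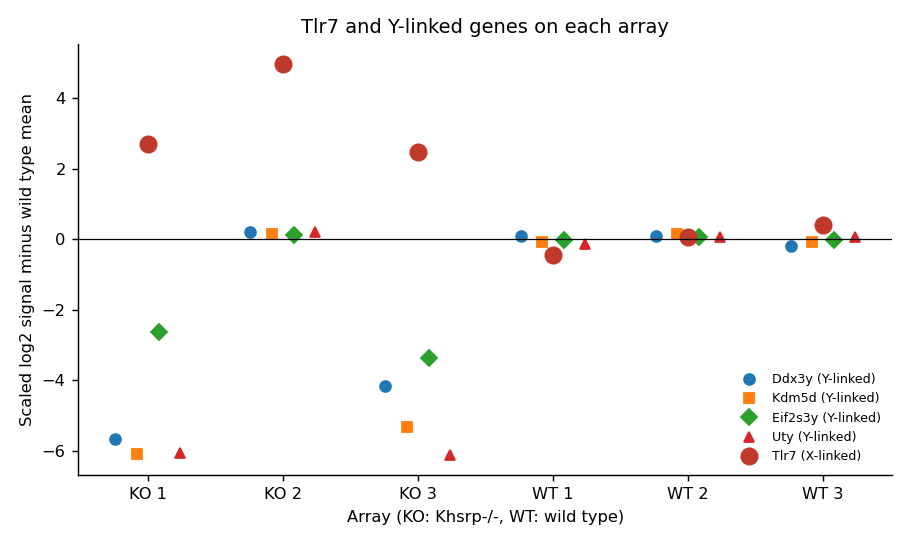
Scaled log2 signal of Tlr7 and of 4 Y-linked genes on each array, as the difference from the mean of the 3 wild type arrays (y axis), by array (x axis; KO, Khsrp-/-; WT, wild type). Y-linked genes lie at -2.63 or lower on KO 1 and KO 3 and near 0 on KO 2, while Tlr7 lies above it by 2.69, 4.98 and 2.47 on KO 1, 2 and 3.

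Tlr7 was higher on every Khsrp-/- array than on any wild type array. Its processed signal, an intensity after subtraction of the background and before scaling between arrays, was 142 on Khsrp-/- array 1, 531 on array 2 and 90.7 on array 3. On the wild type arrays it was 17.1, 24.6 and 26.5. The groups did not overlap, and the lowest knockout signal lay well clear of the highest wild type signal. The mean was 255 ± 240 in Khsrp-/- and 22.7 ± 5.003 in wild type (SD, n = 3), an 11.2-fold ratio of means. In a sample of bulk tissue, more cells of a type and more RNA per cell cannot be told apart.

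The probe was marked well above background by the scanner software on all 6 arrays, but the wild type signals were close to the limit of the assay. The median of the spot was 45.5, 52 and 48 on the wild type arrays, over a local background of 16, 14 and 16. On the Khsrp-/- arrays it was 157, 545 and 119, over a background of 16, 20 and 20. The software's own error of the processed signal was 14.5% to 20.9% on the wild type arrays and 10.03% to 10.5% on the Khsrp-/- arrays. Each array also held 300 spots named as negative controls. The 95th percentile of their signal was 43.6, 38.8 and 28.9 on the wild type arrays, above the Tlr7 signal of the same array, and 35.2, 20.8 and 26.4 on the Khsrp-/- arrays, below it. The wild type level of Tlr7 thus lay within the upper range of the negative controls, and the fold between genotypes carries that uncertainty.

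**Figure D2:**
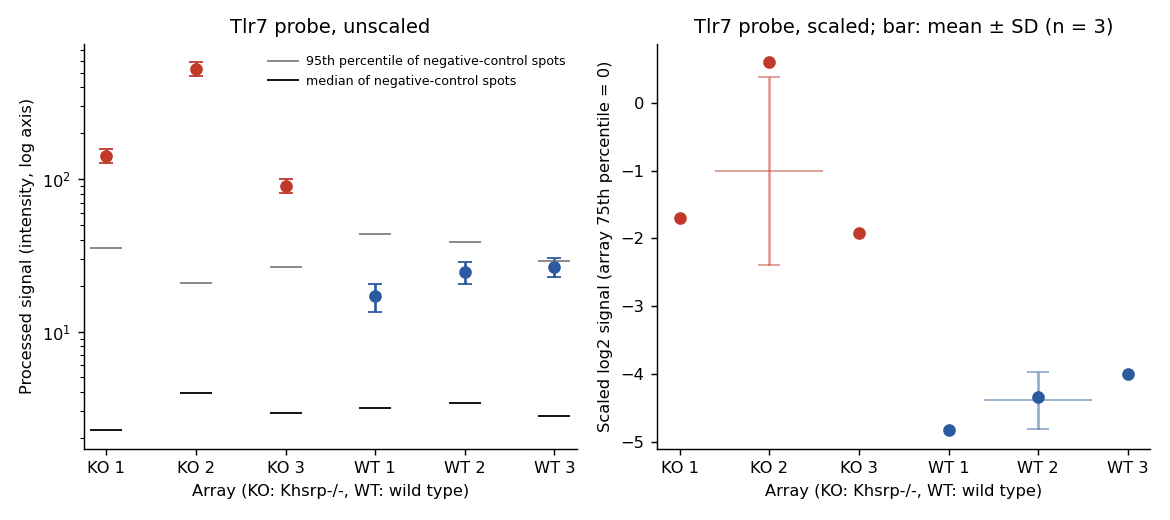
Left, processed signal of the Tlr7 probe on each array (log axis), with the error of the scanner software as bars and the median and 95th percentile of 300 negative-control spots as horizontal marks. Right, the same probe as scaled log2 signal, with each group's mean ± SD (n = 3). Khsrp-/- (KO) arrays, at 142, 531 and 90.7, lie above the 95th percentile of the controls, and wild type (WT) arrays, at 17.1 to 26.5, lie below it.

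To compare arrays, the log2 signal was scaled by subtracting each array's 75th percentile over all probes, so that 0 is a well expressed probe. On this scale Tlr7 was at -1.70, 0.59 and -1.92 on Khsrp-/- arrays 1, 2 and 3 and at -4.83, -4.34 and -4.00 on the wild type arrays. The means were -1.01 ± 1.39 and -4.39 ± 0.42 (SD, n = 3), a difference of 3.38 or 10.4-fold. The lowest Khsrp-/- array exceeded the highest wild type array by 2.07. The normalized log2 values that the authors deposited gave 7.19, 9.43 and 6.92 for Khsrp-/- and 3.97, 4.51 and 5.03 for wild type, a difference of 3.34. The order of the 3 Khsrp-/- arrays was the same on both scales. With another treatment of the background, normexp on the median spot signal with an offset of 50, which shrinks differences between dim signals, the Khsrp-/- values were -1.43, 0.48 and -1.43 and the wild type values -2.77, -2.68 and -2.50, and the difference was 1.85. The difference was smaller on this scale and kept its direction, and the separate parts of the change in method were not tested.

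The 3 Khsrp-/- arrays were not alike. Array 2 was above array 1 by 2.29 on the log2 scale, which is 4.90-fold, and above array 3 by 2.52, which is 5.72-fold. Arrays 1 and 3 differed by 0.22, or 1.17-fold. The wild type arrays spanned 0.84. Array 2 therefore stood apart from the other pair of knockout arrays by more than the wild type arrays differed from each other, while arrays 1 and 3 were closer than the wild type arrays were.

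Each Khsrp-/- array nevertheless lay above the wild type mean. The difference was 2.69 for array 1, 4.98 for array 2 and 2.47 for array 3, which is 6.46-fold, 31.6-fold and 5.53-fold. Without array 2 the difference between genotypes was 2.58, or 5.98-fold. With array 2 alone, which leaves out both arrays at odds with the male label, it was 4.98. About 1 step of 2.40 on the log2 scale, the gap between array 2 and the mean of the other pair, thus separated the estimates.

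Arrays with an identical scan time were taken to share a slide, which put wild type arrays 1 and 2 on one slide, Khsrp-/- arrays 2 and 3 on another and Khsrp-/- array 1 with wild type array 3 on the last. Only the last slide held both genotypes. On it Tlr7 was 2.30 higher in the Khsrp-/- sample, or 4.92-fold. Khsrp-/- arrays 2 and 3 shared a slide and still differed by 2.52. Khsrp-/- array 1, on another slide, differed by 2.29 from array 2 and by 0.22 from array 3. The part of the slide in this spread was not tested.

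Beside the other probes, both the difference and the spread of Tlr7 were large. Among 48364 probes with a value on every array, 14 had a larger measured difference in favour of Khsrp-/-, but 10 of these were well above background on no wild type array, where only a bound can be given. Among named genes 4 had a larger measured difference. Xaf1 was above background on every array, while the other 3 were above it on no wild type array. For these the excess in Khsrp-/- was at least 3.98-fold for Vmn1r198, at least 6.20-fold for Zscan4e and at least 2.25-fold for Tnn. Their order with Tlr7 is therefore not settled. Its SD between Khsrp-/- arrays, 1.39, was larger than that of 99.3% of the probes, whose median was 0.27. Among the 6299 probes within 0.5 of its mean level in Khsrp-/-, the median SD was 0.23, so probes of that brightness were seldom so variable. Its SD between wild type arrays, 0.42, was larger than that of 70.7% of the 5762 probes within 0.5 of its wild type mean, whose median was 0.28. These ranks describe how the gene was picked and are no test.

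High values on array 2 were not general. That array had the highest value of the 3 Khsrp-/- arrays in 30.8% of all probes. Among the 6012 probes whose Khsrp-/- values all lay above the wild type values, it was the highest in 25.7%. A lead of array 2 over both other Khsrp-/- arrays as large as that of Tlr7 was seen in 22 probes, which include the 4 Y-linked genes. Of the 22, only 2 also had no overlap between genotypes, Tlr7 and an unnamed probe. Such a lead was seen in 24 probes for array 1 and in 10 for array 3.

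**Figure D3:**
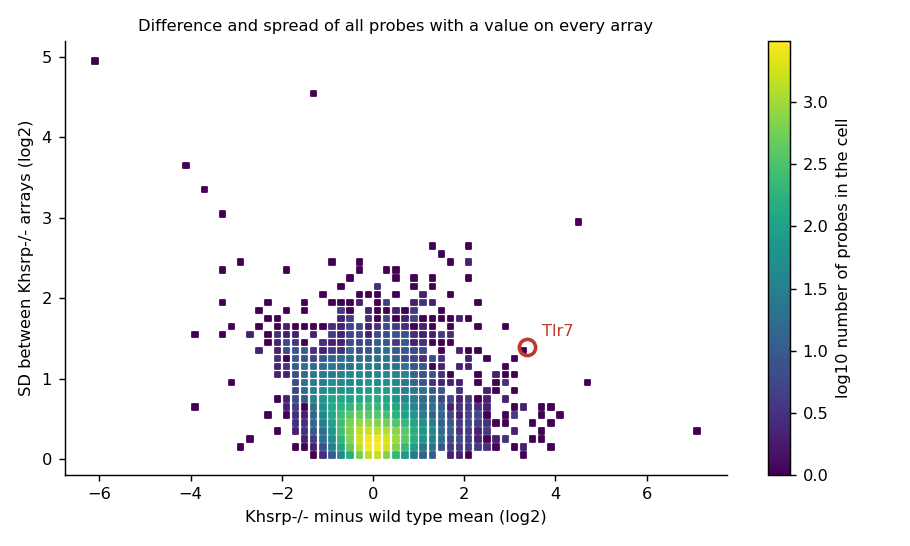
Number of probes (colour, log10) by the difference between genotypes (x axis, log2) and the SD between the 3 Khsrp-/- arrays (y axis, log2), over 48364 probes, with 1 probe beyond the y axis drawn at its edge. Tlr7, circled, has a difference of 3.38 and an SD of 1.39, away from the bulk of the probes on both axes.

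Among the 5 genes to each side of Tlr7 on the X chromosome, Prps2 and Tceanc had named probes. Prps2 was at 4.70, 4.97 and 5.19 in Khsrp-/- and at 4.24, 4.37 and 4.60 in wild type on the scaled log2 scale, a difference of 0.55 (limma, adjusted p = 0.249), and it was highest on array 3. Array 2 was 0.02 above the mean of the other pair for Prps2. Tceanc, a transcription elongation factor relative, was at -5.09, -3.81 and -4.78 in Khsrp-/- and at -7.05, -6.12 and -5.70 in wild type. Its groups did not overlap and it was highest on array 2, by 1.12 over the mean of the other pair, but it was well above background on 2 Khsrp-/- arrays and on no wild type array and was not tested. Tlr8 had no named probe. Of 72 named and tested probes of X-linked genes, 59 of which were named from the part of the table that lists higher probes, the next largest difference after Tlr7 was 1.98 for Tbc1d25. Kdm6a and Eif2s3x, X-linked genes that escape inactivation in the mouse, differed by 0.66 and 0.47. On Khsrp-/- arrays 1, 2 and 3 Kdm6a was at 2.13, 2.10 and 2.66 and Eif2s3x at 4.45, 4.39 and 4.78. Both were lowest on array 2, by little against array 1 and by more against array 3.

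Genes whose profile was most like that of Tlr7 were looked for among all probes over the 6 arrays, first by Pearson's r and then by the distance between differences from the wild type mean. The 6 points are 2 groups of 3, so that every gene with a higher mean in Khsrp-/- correlates to some degree, and 952 probes had an r over 0.9. The values of r are given without a p. Of 50 probes with an r over 0.98, 16 were named, and most names came from the list of higher probes. By r, the closest named gene was Cd72 at 0.997, the second of 48363 probes. Commd10 and Nufip2 followed at 0.993 each, Osbpl8 at 0.989, Fcrl6 and Azi2 at 0.986, and Tank and Fcrlb at 0.985.

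These genes have varied roles. Commd10 encodes a COMM domain protein, Nufip2 an RNA-binding protein and Osbpl8 a lipid transfer protein. Cd72 encodes a receptor of B cells that dampens their antigen receptor, Fcrl6 and Fcrlb relatives of Fc receptors, and Azi2 and Tank adaptors of the kinase TBK1. No theme among them was tested. Their profiles had the shape of Tlr7 on a smaller scale. Cd72 was at -2.64, -2.09 and -2.74 in Khsrp-/- and at -3.47, -3.46 and -3.29 in wild type, so array 2 was again the highest, by 0.60 over the mean of the other pair. The same gap was 0.31 for Commd10, 0.25 for Nufip2, 0.40 for Osbpl8, 0.42 for Fcrl6, 0.39 for Azi2, 0.28 for Tank and 0.44 for Fcrlb, against 2.40 for Tlr7.

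By distance, which takes the size into account, the closest of all probes was Gm5483 and the next was Csta, at 1.13 and 1.36. Both encode small cystatin-type inhibitors of cysteine proteases and come from one gene cluster, and their similar sequences could share signal. Gm5483 was at -2.42, -0.28 and -1.89 in Khsrp-/- and at -4.64, -4.32 and -4.48 in wild type. Csta was at -2.49, -0.16 and -2.21 in Khsrp-/- and at -4.41, -5.61 and -4.19 in wild type, where it was well above background on 2 of 3 arrays. Both were highest on Khsrp-/- array 2, by 1.87 and 2.19 over the mean of the other pair. Their differences between genotypes were 2.95 and 3.12. The next named genes were Vmn1r198 at 1.55, Fam172a at 2.001 and Pi4k2b at 2.15, none of which was well above background on a wild type array.

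**Figure D4:**
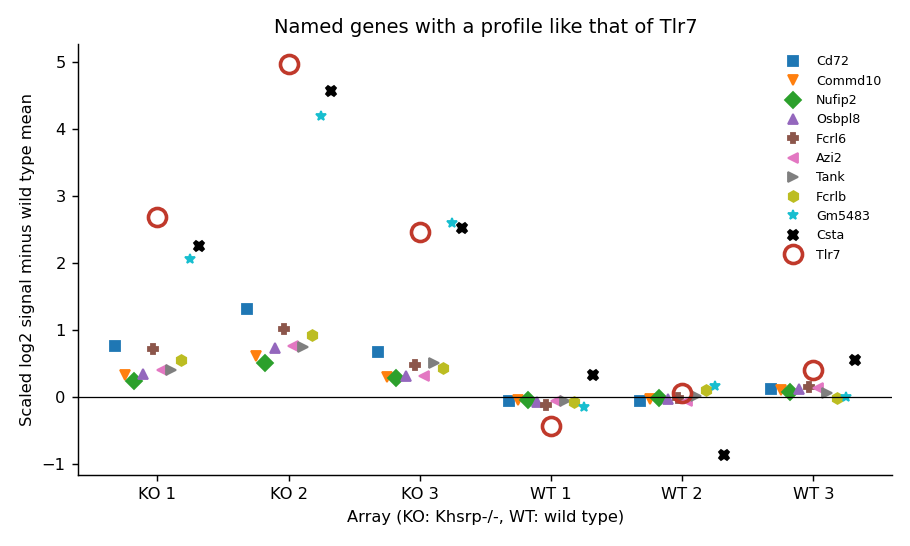
Scaled log2 signal minus the wild type mean (y axis) on each Khsrp-/- (KO) and wild type (WT) array (x axis) for Tlr7, the 8 named genes with the highest r and the 2 with the smallest distance. Gm5483 and Csta follow Tlr7 in size, with KO 2 highest, while the 8 genes chosen by r follow it on a smaller scale.

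The pathway around the receptor was described from 165 further genes, listed by their role. Probes were named for 31 of them and 29 passed the filter of being well above background on at least 3 arrays. Of these, 28 were higher in Khsrp-/- and 0 were lower at an unadjusted p under 0.05 and a difference of at least 0.32 on the log2 scale (limma). Over all probes tested, 9.26% were called higher and 7.03% lower. That share of members cannot be read against this background, because probe names came from a table that its authors had selected on these arrays, and all 29 were named from its list of higher probes. The median difference of the 29 genes was 0.62, against -0.00 over all probes, and follows from the same selection. The groups did not overlap in any of the 29, where 12.4% of all probes had every Khsrp-/- value above every wild type value and 9.9% had every one below. Xaf1 was the single pathway gene with an adjusted p under 0.05, a call made for 0.0826% of all probes as higher and 0.0124% as lower. Among genes well above background on all arrays the next adjusted p was 0.0957 for Oas1c (limma). Of the 29 genes, 28 were well above background on all arrays, and Ifih1 passed the filter only through the Khsrp-/- arrays. That mark did not place every signal above the negative controls. Ccl12 lay below their 95th percentile on every wild type array and on Khsrp-/- array 1. Cd180 and Tank lay below it on wild type arrays 1 and 2. The rises of these genes carry that uncertainty, as for Tlr7.

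These counts depended on the slide, on scaling and on 1 library. With the slide as a fixed block, which rests on the slide with both genotypes, 6 of the 29 genes passed, namely Xaf1, Ifih1, Ifi44, Oas1c, Gbp10 and Ikbke. Without scaling between arrays 10 passed, and that setting moved the median of all probes to -0.29. Without wild type array 1, 15 passed. The calls over all 48438 probes moved too. Before these changes 4484 were called higher. This became 1762 with the slide as a fixed block, 1221 without scaling and 2520 without wild type array 1. Without the 2 Khsrp-/- arrays at odds with the male label, array 2 was the lone Khsrp-/- sample, and no pathway count is given.

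Tlr7 was unlike these genes in its spread. The SD between Khsrp-/- arrays was 0.03 to 0.45 over the 29 genes, with a median of 0.22, against 1.39 for Tlr7. Array 2 was the highest Khsrp-/- array for 9 of them, array 1 for 2 and array 3 for 18. The gap of array 2 over the mean of the other pair ranged from -0.70 for Cxcl10 to 0.61 for Il23a, against 2.40 for Tlr7. None of the 29 genes thus approached the lead that array 2 had for Tlr7. The 29 genes were named from a list of higher probes selected on these arrays, which favours a small spread. Tlr7 was taken up for its spread, so this contrast is a description and no test. On the slide with both genotypes the difference was 0.14 to 6.68 over the 29 genes, with a median of 0.35. The groups overlapped in none of the 29, so the direction on that slide was fixed in advance and is no separate result.

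**Figure D5:**
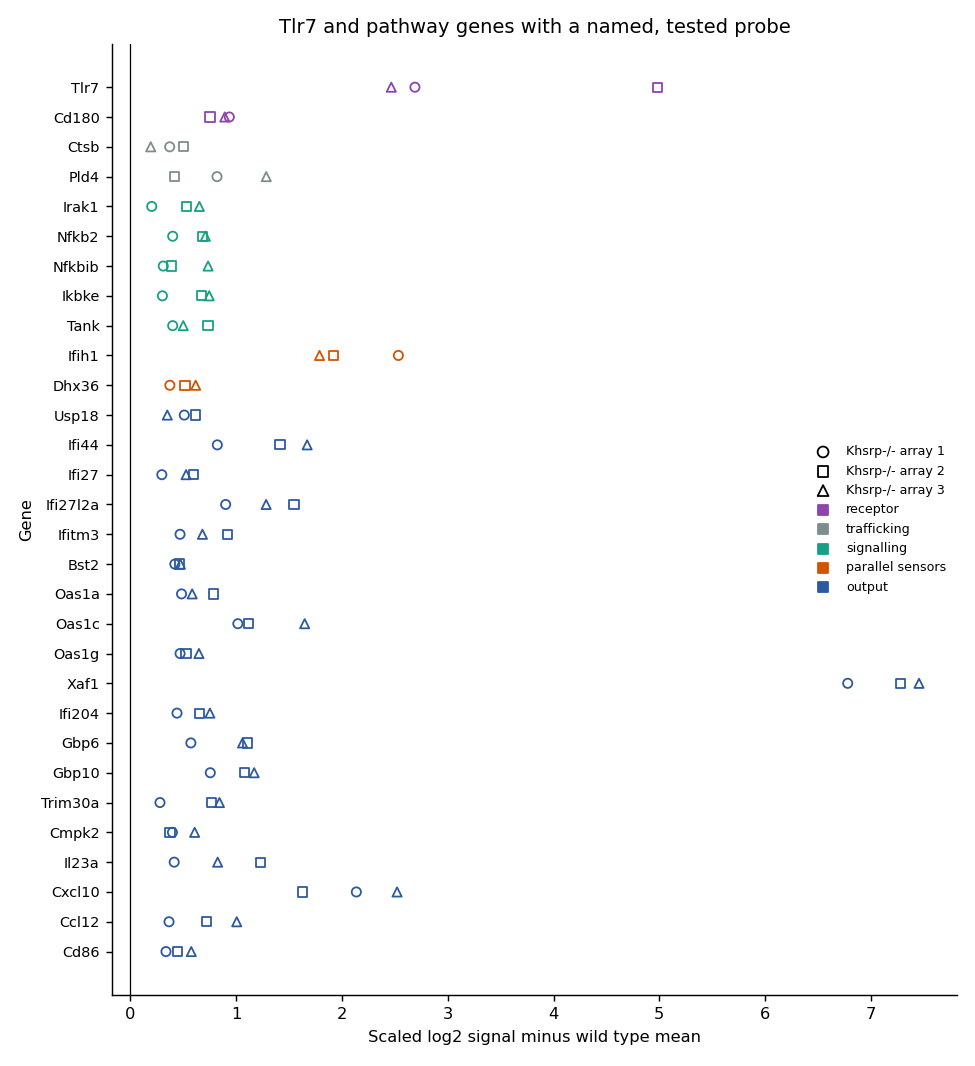
Scaled log2 signal of each Khsrp-/- array minus the wild type mean (x axis) for Tlr7 and the 29 tested pathway genes (y axis), with the array as the marker shape and the role in the pathway as the colour. The points of each pathway gene lie closer together than those of Tlr7, whose array 2 lies 2.40 above the mean of arrays 1 and 3, and all points are above 0.

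Among the receptors, Tlr7 was the single endosomal Toll-like receptor of 7 with a named probe. Of 9 surface receptors and their partners, the named gene was Cd180, which encodes a receptor related to TLR4 that is known from B cells. Its scaled log2 signal was -3.12, -3.31 and -3.17 in Khsrp-/- and -4.45, -4.04 and -3.70 in wild type, and it rose by 0.86 (SE 0.21; limma, adjusted p = 0.190). The groups were separate, and array 2 was the lowest Khsrp-/- array, unlike Tlr7. The Cd180 signal on wild type arrays 1 and 2 lay below the 95th percentile of the negative controls.

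Of 15 genes for the trafficking and processing of endosomal receptors and of RNA, Ctsb and Pld4 were named. Pld4, a nuclease of endosomes that degrades single-stranded nucleic acids, was at -2.31, -2.72 and -1.85 in Khsrp-/- and at -3.04, -3.23 and -3.13 in wild type. It rose by 0.84 (limma, adjusted p = 0.214) and was lowest on array 2 among the Khsrp-/- arrays. Ctsb, a lysosomal cysteine protease, differed by 0.36 and did not pass before adjustment (limma, adjusted p = 0.307).

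Of 16 adaptors and kinases Irak1 was named, the kinase that links MYD88 to TRAF6, and like Tlr7 it is X-linked. It was at 3.92, 4.25 and 4.37 in Khsrp-/- and at 3.64, 3.79 and 3.73 in wild type and rose by 0.46 (limma, adjusted p = 0.268), and its other probe differed by 0.51. In the NF-kappaB branch, with 3 of 14 genes named, Nfkb2, a precursor of an NF-kappaB subunit, rose by 0.60 and Nfkbib, an inhibitor of NF-kappaB, rose by 0.48. Ikbkg, the regulatory subunit of the IKK complex, differed by 1.11 without overlap between the groups but was well above background on 1 array and was not tested. In the IRF branch, with 2 of 9 genes named, the kinase gene Ikbke rose by 0.58 and Tank by 0.55. Each of these 5 rises passed before adjustment and none after it, with adjusted p-values of 0.218 to 0.268 (limma). The 5 genes were named from the list of higher probes, a selection that favours such calls. The Tank signal on wild type arrays 1 and 2 lay below the 95th percentile of the negative controls.

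Of 12 sensors of nucleic acids in the cytosol, Ifih1 and Dhx36 were named. Ifih1 encodes MDA5, which detects long double-stranded RNA. Its processed signal was 58.2, 29.0 and 25.8 in Khsrp-/- and 7.30, 13.2 and 10.96 in wild type. It was well above background on every Khsrp-/- array and on none of the wild type arrays, and it was at least 2.77-fold higher in Khsrp-/-. It passed the filter only through the Khsrp-/- arrays, so its fit (limma, adjusted p = 0.0701) rests on wild type values not above background. The bound sets each wild type array to the dimmest signal that was well above background there, or to the probe's own signal where that was higher. Array 1 was the highest for Ifih1, not array 2. Dhx36, an RNA helicase, rose by 0.50 (limma, adjusted p = 0.224).

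No interferon, interferon receptor or JAK-STAT gene of the 14 listed had a named probe. Among 51 interferon-stimulated genes 16 were named and 15 tested, and all 15 were called higher before adjustment, with a median difference of 0.63. Over all probes tested, 9.26% were called higher. All 15 were named from the list of higher probes, so their count follows from that selection. Ifi205 had a named probe but was not tested. It differed by 1.27 and was well above background on 2 Khsrp-/- arrays and on no wild type array. Xaf1, a pro-apoptotic gene that interferon induces, was the largest of the 15. Its processed signal was 5589, 5998 and 6634 in Khsrp-/- and 50.4, 54.4 and 49.9 in wild type, a difference of 7.17 on the scaled log2 scale (SE 0.21; limma, adjusted p = 0.000132). Its arrays lay in narrow bands, without the spread seen for Tlr7.

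The other interferon-stimulated genes differed less. Ifi44 was at 0.10, 0.69 and 0.95 in Khsrp-/- and at -0.78, -0.52 and -0.87 in wild type, a rise of 1.30. Oas1c, of the family of oligoadenylate synthetases, rose by 1.26, Ifi27l2a by 1.245 and Gbp10, a guanylate-binding protein, by 1.004. Their adjusted p-values were 0.0957 to 0.180 (limma). Gbp6, Ifitm3, Trim30a, Oas1a, Ifi204, Oas1g, Usp18, Ifi27, Cmpk2 and Bst2 followed, from 0.92 for Gbp6 to 0.45 for Bst2. Members of the Oas1, Gbp and Ifi families have close paralogs, and signal may be shared between them.

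Of 19 cytokines, chemokines and costimulators 4 were named, and all rose before adjustment, with a median difference of 0.76. These 4 names also came from the list of higher probes, and 9.26% of all probes were called higher. Cxcl10, a chemokine that interferon and NF-kappaB both induce, had a processed signal of 850, 456 and 826 in Khsrp-/- and of 121, 254 and 244 in wild type. It rose by 2.10 on the scaled log2 scale (SE 0.37; limma, adjusted p = 0.111). Its lowest Khsrp-/- signal was on array 2, where Tlr7 was highest. Il23a, a cytokine subunit, rose by 0.82, the chemokine Ccl12 by 0.70 and the costimulator Cd86 by 0.46. The Ccl12 signal was 22.2, 26.3 and 22.7 in wild type, below the 95th percentile of the negative controls on each array.

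The promoters of 3 of these genes are shown because they had the largest measured differences in the pathway beside Tlr7. They run from 250 bases before the transcription start to 50 bases after it (RefSeq, GRCm38.p6), for Xaf1 at chr11:72301379-72301678 on the plus strand, Cxcl10 at chr5:92348840-92349139 on the minus strand and Ifih1 at chr2:62646206-62646505 on the minus strand. Capitals mark matches, on either strand, to a core of the interferon-stimulated response element, spelled GAAANNGAAA, or of the NF-kappaB site, spelled GGGNNNTTCC.
Xaf1: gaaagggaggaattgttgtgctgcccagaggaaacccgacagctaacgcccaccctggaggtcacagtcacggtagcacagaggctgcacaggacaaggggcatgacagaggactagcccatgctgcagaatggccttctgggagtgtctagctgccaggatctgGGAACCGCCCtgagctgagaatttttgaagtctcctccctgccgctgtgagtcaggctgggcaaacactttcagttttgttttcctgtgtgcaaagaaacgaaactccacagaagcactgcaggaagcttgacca
Cxcl10: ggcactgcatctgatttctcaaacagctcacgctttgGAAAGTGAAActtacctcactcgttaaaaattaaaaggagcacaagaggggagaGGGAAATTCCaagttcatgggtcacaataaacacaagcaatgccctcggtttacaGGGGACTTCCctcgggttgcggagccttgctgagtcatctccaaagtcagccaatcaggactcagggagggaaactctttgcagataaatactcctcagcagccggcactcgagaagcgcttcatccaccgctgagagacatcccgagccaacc
Ifih1: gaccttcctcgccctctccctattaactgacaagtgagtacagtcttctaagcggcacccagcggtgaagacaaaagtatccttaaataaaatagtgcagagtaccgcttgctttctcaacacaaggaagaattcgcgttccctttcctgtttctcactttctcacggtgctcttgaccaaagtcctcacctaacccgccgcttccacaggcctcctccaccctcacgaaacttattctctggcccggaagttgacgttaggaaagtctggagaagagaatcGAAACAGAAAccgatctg
Cxcl10 held 1 match to the first motif and 2 to the second, Ifih1 held 1 to the first and Xaf1 held 1 to the second. Over 27025 promoters of the same length, 3.49% held the first motif and 5.52% the second. The matches did not overlap one another. Among the 20 of the 29 tested pathway genes with a promoter in the table, 8 held the first, which were Bst2, Cxcl10, Ifih1, Ifitm3, Oas1a, Oas1c, Oas1g and Trim30a, and 6 held the second, which were Bst2, Cxcl10, Ifitm3, Nfkb2, Tank and Xaf1. The list includes genes chosen as interferon-stimulated, so the share of its members with a motif cannot be read against that of all promoters. These matches describe the letters of the sequences and do not show that a factor binds there.

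Markers of the cells that could carry Tlr7 were mostly not named. None of 25 microglia markers and none of 12 macrophage markers had a named probe, so the level of those cells was not analysed here. Of 10 markers of B cells and plasmacytoid dendritic cells, Cd72 and Cd79b, a subunit of the B cell antigen receptor, were named. Their summed level, in units of each array's 75th percentile, was 0.338 to 0.387 on the Khsrp-/- arrays and 0.203 to 0.228 on the wild type arrays. The groups did not overlap, but both genes were named from the list of higher probes, a selection that favours such a separation. Of all probes, 12.4% had every Khsrp-/- value above every wild type value. The other markers of these cells had no named probe. The sum was highest on Khsrp-/- array 2 through Cd72, which the likeness to Tlr7 had already picked out. Cd79b was at -2.49, -2.71 and -2.32 in Khsrp-/- and at -3.13, -3.16 and -2.99 in wild type, and array 2 was its lowest Khsrp-/- array. Cd72 rose by 0.92 and Cd79b by 0.59 (limma, adjusted p = 0.163 and 0.214), and neither was at 0. Their part in the level of Tlr7 was not tested.

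Neurons and astrocytes, the main cells of the tissue, were represented by 3 of 13 and 1 of 10 markers, and no marker of oligodendrocytes or of endothelium was named. The neuronal genes Snap25 and Thy1 rose by 0.55 and 0.43, and Camk2a fell by 0.86. The summed level of the 3 was 74.5 to 98.9 on the Khsrp-/- arrays and 87.8 to 104 on the wild type arrays, so that the groups overlapped. The astrocyte transporter gene Slc1a2 rose by 0.48. These 4 calls were made before adjustment, with adjusted p-values of 0.162 to 0.299 (limma). All 4 names came from the table that was selected on these arrays.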

How the data were processed

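RNA of 3 Khsrp-/- and 3 wild type neocortex samples was hybridized in 1 colour. The scanner files that the authors deposited came from Agilent Feature Extraction 11.0.1.1. Their processed signal is a background-subtracted intensity, with marks of 0 or 1 for spots well above background. They also deposited normalized log2 values, used as an alternative, and the submitters' processing notes name limma. Probe symbols came from the paper's supplementary table, by probe name or, for 266 entries it lists as lower, by their signals. That table was selected on these arrays. A further 15 probes were named by their RefSeq accession.

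Control, negative-control and outlier spots were left out, and log2 signals were averaged per probe and scaled to each array's 75th percentile. Probes well above background on at least 3 arrays (48438, of which 41974 on all 6) were fitted in R 4.3.3 with limma 3.58.1 (lmFit, eBayes), with Benjamini-Hochberg adjustment over all of them. A probe was called at p under 0.05 and a 1.25-fold change. With several probes for a symbol, the brightest was used. Recovery of known changes was checked on data simulated for this comparison on 48364 probes. The simulated noise was normal and independent, without slide effects or arrays at odds with their label. False calls among unchanged probes were not counted. Of 100 probes changed by 1 on the log2 scale 94 were called, 11 after adjustment, and of 100 changed by 2, 97 and 65.

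Between 71.3% and 82.6% of spots were well above background per array. The number of arrays limits the precision. A p-value sets the difference between groups against the spread within them. That spread includes any difference between slides and between Khsrp-/- arrays with and without signal of Y-linked genes. Tlr7, the gene lists and the tests were chosen with earlier results of these data known. Named were Tlr7, every listed gene with a named probe, the 8 most similar by correlation and 5 by distance, and the 5 genes to each side. Zscan4e, Tnn and Tbc1d25 were named after their values were seen. Columns of the authors' own comparisons (fold changes, p-values) were not used.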

Additional observations from a re-analysis of the deposited data

How the results depend on the processing

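The difference of Tlr7 stayed above 0 under all 17 alternatives that gave a value, from 1.85 to 4.98 around 3.38. It was 1.85 after normexp, 2.30 with the slide as a fixed block and 4.98 without both Khsrp-/- arrays at odds with their sex label, an alternative chosen after seeing the data. Leaving out 1 array at a time gave 2.58 (without Khsrp-/- array 2) to 3.84 (without array 3). Tlr7 was taken up for this difference and its groups did not overlap. Leaving out an array could therefore not change the direction, and a replicate block could not change the value. The gap of array 2 was 1.91 to 2.52 under 12 alternatives. Those without a wild type array cannot change this gap.

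Of all probes, 4484 were called higher. This became 1221 without scaling, 1762 with the slide as a fixed block, 2728 at 1.5-fold and 2520 to 6641 with 1 array left out. The 3405 called lower became 7286 without scaling, 1815 by the methods' t-test, 6447 without both arrays at odds with the label, 1092 and 2214 with the slide as a fixed and a random block, and 1495 to 6409 with 1 array left out. Without scaling 14.4% of calls were higher, against 56.8%. The 46 called after adjustment became 72 with a shift by the median, 23 without scaling, 23 when probes had to be above background on all arrays, 1 by the t-test, 97 with trended and robust variances, 1 without both arrays, 0 and 27 with the slide as a fixed and a random block, and 6 to 2046 with 1 array left out. The 28 pathway genes became 10, 6 and 17 without scaling, with the fixed slide block and at 1.5-fold, and 15 (without wild type array 1) to 28 with 1 array left out. The cause was not tested.

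Replicate numbers did not pair the samples: the deviations of same-numbered arrays correlated at -0.31, 0.10 and -0.31. With a replicate block the Tlr7 difference was 3.38, 25 pathway genes passed, and 1 probe passed after adjustment.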
